A study of Mus musculus with 18 samples.

Results

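The imprinted growth genes followed here are 10 loci expressed mainly from 1 parental copy: *H19*, *Igf2*, *Igf2r*, *Dlk1*, *Meg3*, *Cdkn1c*, *Peg3*, *Mest*, *Plagl1* and *Grb10*. They were taken from the expected-count table by Ensembl identifier, and all 10 were found among its 51912 genes and passed the filter on low counts that left 15710 genes for testing. RNA-seq was performed on mouse embryonic fibroblasts (MEFs), primary connective-tissue cells of mid-gestation embryos, from 6 genotypes with 3 libraries each: *Pole4*+/+ or *Pole4*-/-, each with *Trp53*+/+, *Trp53*+/- or *Trp53*-/-. All cultures were kept in 15% serum and 5% oxygen without a drug or other agent, and both deletions were germline, so every cell of an embryo carried them. POLE4 is an accessory subunit of DNA polymerase epsilon, and TRP53 is the transcription factor that restrains the cell cycle after DNA damage. The methods state that MEFs were isolated embryo by embryo, but the labels do not tie each library to an embryo, so the p-values measure the spread between these libraries.

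Genomic imprinting marks a gene in the germline by DNA methylation, so that the copy from 1 parent is used and that from the other is silent. Paternally expressed members include the growth factor gene *Igf2*, *Dlk1* (a membrane protein of the Notch ligand family that holds back adipocyte differentiation), *Peg3* and *Plagl1* (zinc finger proteins), and *Mest* (a hydrolase-like membrane protein). Maternally expressed members include *H19* and *Meg3* (long non-coding RNAs), *Igf2r* (the receptor that carries IGF2 to lysosomes for degradation), *Cdkn1c* (the CDK inhibitor p57, whose human counterpart is linked to the growth disorder IMAGe syndrome) and *Grb10* (an adaptor that dampens insulin and IGF receptor signalling). Many of them are high in the embryo and decline after birth, and fibroblasts and other mesenchymal cells are among their main sites of expression.

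In GRCm38 the genes lie on 6 chromosomes. On chromosome 7 are *H19* (chr7:142575529-142578143, minus strand), *Igf2* (chr7:142650766-142666816, minus), *Cdkn1c* (chr7:143458339-143461050, minus) and *Peg3* (chr7:6703892-6730431, minus). *Dlk1* (chr12:109452823-109463336, plus) and *Meg3* (chr12:109541001-109571726, plus) share a domain on chromosome 12. *Mest* is at chr6:30723547-30748465 (plus), *Plagl1* at chr10:13060504-13131694 (plus), *Grb10* at chr11:11930508-12038683 (minus) and *Igf2r* at chr17:12682406-12769664 (minus). *H19* and *Meg3* are annotated as long intergenic non-coding RNAs and the other 8 as protein-coding.

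The control regions of such genes are rich in CpG, the dinucleotide that carries the methyl mark. RefSeq start sites (GRCm38.p6) were matched for 8 of the 10 genes, with 15 start sites in all; *H19* and *Cdkn1c* were not matched. The 250 bases before the start site are printed for *Meg3*, *Mest*, *Peg3* and *Igf2r*, because these 4 genes fell together when *Trp53* was lost in *Pole4*-/- cells. Each sequence runs 5′ to 3′ and CpG is in capitals.
Meg3, chr12:109540746-109540995, plus strand: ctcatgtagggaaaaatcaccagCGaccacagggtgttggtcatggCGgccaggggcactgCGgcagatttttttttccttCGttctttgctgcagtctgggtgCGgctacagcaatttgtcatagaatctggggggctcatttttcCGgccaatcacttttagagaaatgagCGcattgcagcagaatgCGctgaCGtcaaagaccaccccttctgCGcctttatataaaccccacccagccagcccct
Mest, chr6:30737800-30738049, plus strand: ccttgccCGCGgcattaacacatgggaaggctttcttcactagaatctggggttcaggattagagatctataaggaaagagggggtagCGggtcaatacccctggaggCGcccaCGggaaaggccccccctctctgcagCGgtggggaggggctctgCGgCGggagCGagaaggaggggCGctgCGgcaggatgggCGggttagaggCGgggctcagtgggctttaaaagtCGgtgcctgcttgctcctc
Peg3, chr7:6730420-6730669, minus strand: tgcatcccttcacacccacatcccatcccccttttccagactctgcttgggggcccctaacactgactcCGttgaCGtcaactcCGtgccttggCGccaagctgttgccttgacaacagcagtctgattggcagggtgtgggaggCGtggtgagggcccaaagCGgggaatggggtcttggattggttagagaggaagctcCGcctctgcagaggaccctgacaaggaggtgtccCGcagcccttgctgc
Igf2r, chr17:12769707-12769956, minus strand: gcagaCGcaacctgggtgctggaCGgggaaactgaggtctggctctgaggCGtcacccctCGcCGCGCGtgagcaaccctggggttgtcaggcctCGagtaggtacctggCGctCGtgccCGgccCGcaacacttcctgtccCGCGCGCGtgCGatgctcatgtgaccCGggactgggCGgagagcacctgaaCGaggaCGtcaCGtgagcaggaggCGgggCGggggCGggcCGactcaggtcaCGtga
These windows held 10 CpG for *Meg3*, 14 for *Mest*, 8 for *Peg3* and 27 for *Igf2r*, beside a median of 6 over the 32817 promoter windows in the table. The TRP53 decamer (the 10-base unit of the TRP53 response element, searched on both strands) matched none of the 4 windows. It matched 1 of the 15 member windows, a start site of *Igf2*, and 7.12% of all windows. The core of the YY1 motif, ATGGCNGC, matched the *Meg3* window and a window of *Plagl1*, beside 4.07% of all windows. The core of the PLAGL1 motif, GGGGGGCC, matched the printed *Mest* window, a second *Mest* window that starts 3 bases further on and a window of *Igf2*, beside 1.03% of all windows. A match is a run of letters, and binding and methylation were not measured. Both *H19* and *Mest* also carry a microRNA within the gene, whose mature forms follow with the seed (bases 2 to 8) in capitals, as background to the 2 host transcripts.
miR-675-5p, in *H19*: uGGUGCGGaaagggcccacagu
miR-675-3p, in *H19*: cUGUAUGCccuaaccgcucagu
miR-335-5p, in *Mest*: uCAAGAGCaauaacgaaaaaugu
miR-335-3p, in *Mest*: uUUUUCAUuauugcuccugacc
No other mature mouse miRNA in the table shared any of these 4 seeds, and the table lists 0 counts for either miRNA gene over the 18 libraries, so the host RNA is all that was measured.

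Library totals ran from 9535971 to 35319918 counts (median 22781543), and ribosomal RNA genes took 0.968% to 42.5% of them. The *Pole4* level was 9.26 to 11.99 CPM (counts relative to the TMM-scaled library total) in the 9 *Pole4*-/- libraries and 14.2 to 26.4 in the 9 *Pole4*+/+ libraries. *Trp53* was at 8.65 to 12.1 CPM in *Trp53*-/- libraries, and at 48.4 to 96.1 in the others. The 11 fibroblast markers summed to between 14360 and 31340 CPM in each library, and the 7 erythroid and liver markers to at most 1.86, with 6 of those 7 under 1 CPM in every library. The 6 endothelial markers summed to 1.64 to 6.17 CPM, the 6 epithelial markers to 2.06 to 20.2, the 6 macrophage markers to 3.02 to 23.7, the 12 skeletal muscle markers to 24.0 to 85.9, the 7 neural and glial markers to 68.9 to 147, and the 6 cartilage markers to 139 to 701. By *Xist* and 4 Y-linked genes, 7 libraries were male: all 3 of *Pole4*+/+ *Trp53*+/-, 2 of *Pole4*-/- *Trp53*+/+, 1 of *Pole4*-/- *Trp53*+/-, 1 of *Pole4*-/- *Trp53*-/- and none of the remaining genotypes.

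One library stood apart from its group before any comparison. In *Pole4*+/+ *Trp53*-/- library 1, all 10 genes lay above their genotype mean, by 0.21 to 2.001 on the log2 scale (median 0.77). *Mest* was at 403 CPM there, against 59.1 and 42.8 CPM in libraries 2 and 3 of the same genotype. *Cdkn1c* was at 174 CPM against 50.9 and 37.3, and *Meg3* at 323 CPM against 77.0 and 112. The same library was female by its 30727 *Xist* counts, but it also held 99 *Ddx3y* and 82 *Eif2s3y* counts, where the other female libraries held at most 6 and at most 2. The part of these Y-linked reads in the other values of the library was not tested. Where a call, a direction or a count given below turned on that library, the value without it follows.

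Levels between genes were compared per kb of exon, as CPM per kb. *H19* was the most abundant, with a mean of 1305 CPM per kb and 721 to 2738 over the 18 libraries. *Igf2*, its neighbour on chromosome 7 (GRCm38), had a mean of 336 and ranged from 206 to 508, so the ranges of the 2 genes did not overlap. *Grb10* followed at 115 (96.7 to 136), clear of *Igf2* above it and of *Igf2r* below it at 42.4 (20.1 to 65.9). The remaining genes followed in the order *Mest* at 26.4, *Cdkn1c* at 23.4, *Peg3* at 13.8, *Meg3* at 11.3 and *Plagl1* at 10.5 CPM per kb, and the ranges of neighbours in that order overlapped. *Dlk1* was the lowest at 3.62, again overlapping its neighbour, with 46 to 2848 counts per library, and 46 was the lowest count of any of the 10 in a library.

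Across the 6 genotypes, 3 of the 10 genes varied by more than the spread between libraries: *Igf2r* (adjusted p = 0.00249), *Dlk1* (adjusted p = 0.0201) and *Mest* (adjusted p = 0.0326; edgeR quasi-likelihood F-test with Benjamini-Hochberg adjustment over all genes tested). Over all genes tested 28.5% passed the same test. The number of members called ran from 1 (no filter on low counts, 12.8% of all genes) to 6 (limma voom, 53.7%) over the settings tried. It was also 6 (30.9%) with the replicate number as a block in the fit, chosen after seeing the data. The orders of the genotype means differed from gene to gene. Only for *Meg3* and *Peg3* did the highest genotype, *Pole4*-/- *Trp53*+/+, stand clear of the genotype next in mean in every library. Without *Pole4*+/+ *Trp53*-/- library 1 that also held for *Mest* and *Grb10*. For *Grb10*, *Pole4*+/+ *Trp53*+/+ library 1 (1125 CPM) still lay above the lowest *Pole4*-/- *Trp53*+/+ library (1111 CPM). The highest mean of *H19*, *Igf2r*, *Meg3*, *Peg3*, *Mest*, *Plagl1* and *Grb10* was in *Pole4*-/- *Trp53*+/+ cells; that of *Igf2*, *Dlk1* and *Cdkn1c* was in *Pole4*+/+ *Trp53*-/- cells. Without library 1 of that genotype its mean was 1852 CPM for *Igf2*, below the 2040 of *Pole4*-/- *Trp53*+/+ cells, and 44.1 CPM for *Cdkn1c*, below the 46.5 of *Pole4*-/- *Trp53*-/- cells, and only *Dlk1* kept its place (28.1 CPM). Without that library *Igf2r*, *Mest*, *Meg3* and *Plagl1* passed the test over all genotypes, and *Dlk1* did not (adjusted p = 0.0929), beside 42.9% of all genes. *Igf2* had the flattest profile by this test among the 10 (adjusted p = 0.906), with means from 1607 ± 377 to 2058 ± 358 CPM (SD, n = 3).

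**Figure D1:**
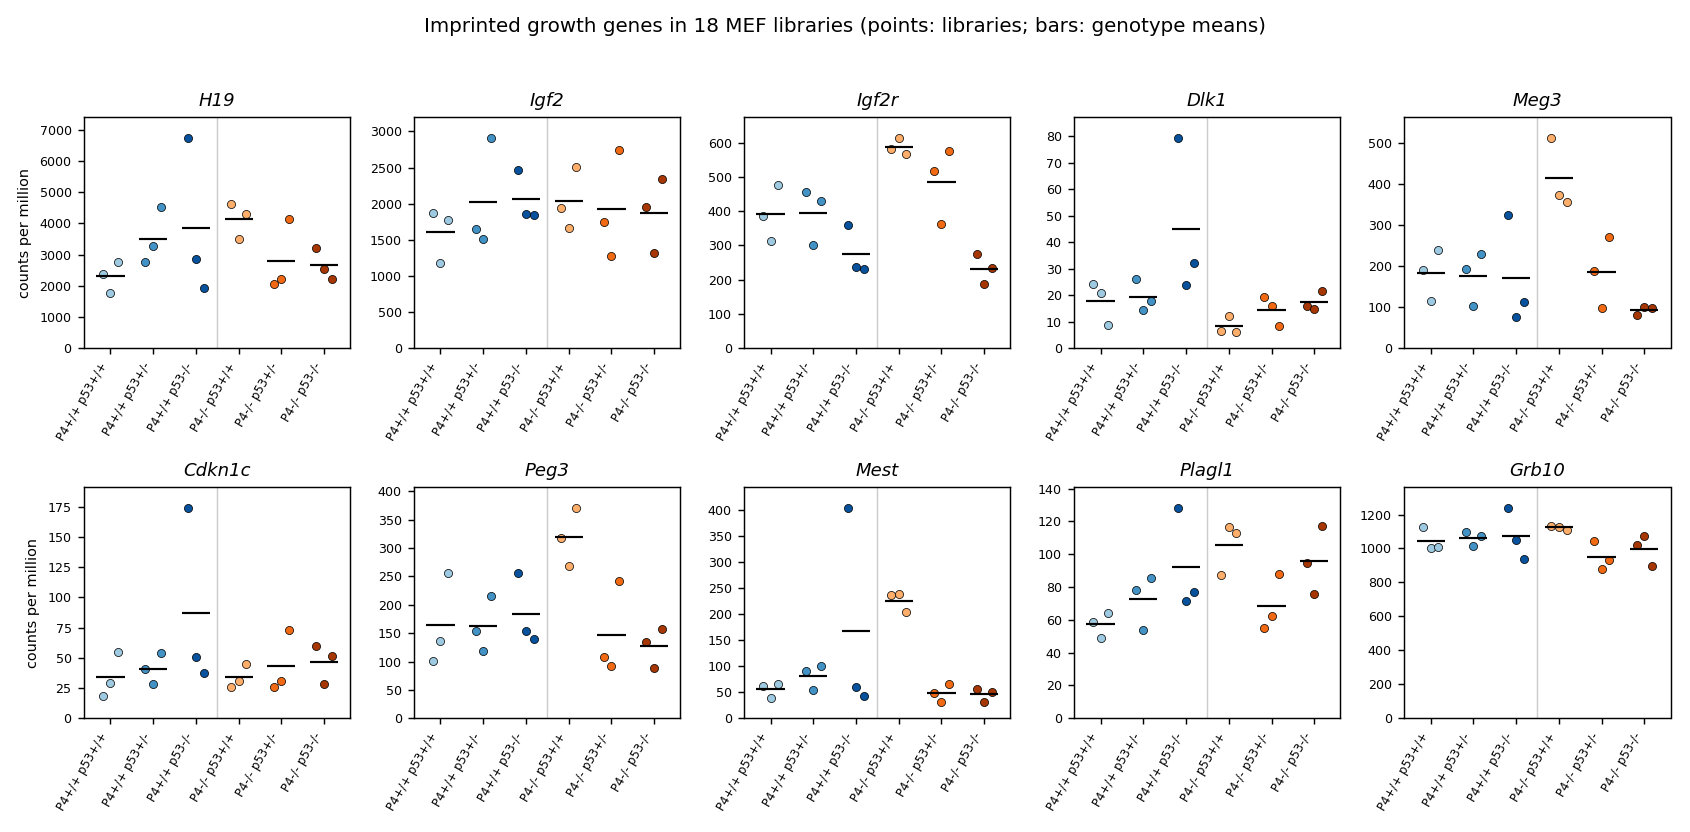
Level of each of the 10 genes in CPM (linear axis from 0) in the 18 libraries, by genotype (P4, Pole4; p53, Trp53); points are libraries and bars are genotype means. *Mest* lies at 203 to 238 CPM in *Pole4*-/- *Trp53*+/+ cells and at 32.0 to 56.1 in *Pole4*-/- *Trp53*-/- cells, while 1 *Pole4*+/+ *Trp53*-/- library lies at 403.

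Loss of *Trp53* in *Pole4*-/- cells asks what TRP53 sustains when polymerase epsilon is short of a subunit, and it gave the only calls between 2 genotypes. *Igf2r*, *Meg3*, *Peg3* and *Mest* fell, *Mest* by 4.91-fold and *Meg3* by 4.44-fold. No member rose in this fit, and the other 6 genes did not pass the test, with log2 fold changes from -0.64 to 1.09. Of all genes tested, 42.6% were called in this comparison and 20.8% were called lower, and 4 of 10 is close to the first share. *Igf2r*, *Meg3* and *Mest* were called under each other scaling, filter and tool tried on all libraries, and *Peg3* lost its call with library totals alone (adjusted p = 0.0802) and with no filter on low counts (adjusted p = 0.0591). A fit of the 6 libraries compared called 6 (50.8% of all genes) and DESeq2 called 5 (43.4%). The 4 genes that fell comprise 2 expressed from the maternal copy (*Igf2r*, *Meg3*) and 2 from the paternal copy (*Peg3*, *Mest*).

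*Igf2r* was at 582, 614 and 568 CPM in the 3 *Pole4*-/- *Trp53*+/+ libraries and at 276, 187 and 233 CPM in the 3 *Pole4*-/- *Trp53*-/- libraries. The lowest of the first group lay above the highest of the second by more than the range of either. The receptor transcript fell by 1.34 on the log2 scale (SE 0.22, adjusted p = 0.000282). The call held in each of the alternative settings, with log2 fold changes from -1.48 to -1.21 when single libraries were left out. The antisense gene *Airn*, which overlaps *Igf2r* and silences its paternal copy in the embryo, was not called (log2 fold change -0.93, SE 0.47, adjusted p = 0.127); the library kit does not mark strand, so reads in the overlap cannot be told apart.

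*Meg3* was at 512, 374 and 357 CPM in *Pole4*-/- *Trp53*+/+ cells and at 81.8, 101 and 97.9 CPM in *Pole4*-/- *Trp53*-/- cells. Each library with TRP53 was thus above 3 times any library without it, and *Meg3* fell by 2.15 on the log2 scale (SE 0.51, adjusted p = 0.00414). *Rian* and *Mirg*, non-coding RNAs made from the maternal copy of the same *Dlk1*-*Dio3* domain on chromosome 12, fell with it, by 1.11 (SE 0.22, adjusted p = 0.00118) and 1.34 (SE 0.29, adjusted p = 0.00206). *Rian* was at 757, 618 and 603 CPM with TRP53 and at 315, 311 and 292 without it. *Dlk1*, from the paternal copy of the domain, went the other way: 6.33, 12.2 and 6.16 CPM with TRP53 and 16.1, 15.0 and 21.6 without it. These *Dlk1* groups did not overlap, but the difference was not called (log2 fold change 1.09, SE 0.51, adjusted p = 0.0977). DESeq2 (1.09, adjusted p = 0.0365) and a fit of the 6 libraries compared (1.09, adjusted p = 0.0161) did call it.

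*Peg3* was at 318, 269 and 371 CPM in *Pole4*-/- *Trp53*+/+ cells and at 135, 88.7 and 157 CPM in *Pole4*-/- *Trp53*-/- cells. The groups did not overlap, and *Peg3* fell by 1.33 on the log2 scale (SE 0.41, adjusted p = 0.0183). Without *Pole4*-/- *Trp53*-/- library 2 the adjusted p was 0.0703, and without *Pole4*-/- *Trp53*+/+ library 3 it was 0.0536. *Zim1*, a maternally expressed zinc finger gene 7.44 kb from *Peg3*, was at 28.5, 17.2 and 21.01 CPM with TRP53 and at 3.77, 3.19 and 4.11 without it. It fell by 2.60 (SE 0.64, adjusted p = 0.00513), although the 2 neighbours are used from opposite parental copies.

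*Mest* was at 236, 238 and 203 CPM in *Pole4*-/- *Trp53*+/+ cells and at 56.1, 32.0 and 49.9 CPM in *Pole4*-/- *Trp53*-/- cells. Both groups were tight against the gap between them, and *Mest* fell by 2.30 on the log2 scale (SE 0.66, adjusted p = 0.0132). All 6 genotypes share 1 estimate of the spread, which includes the *Mest* value of 403 CPM. Without *Pole4*-/- *Trp53*-/- library 2 the adjusted p was 0.0521. *Copg2*, which overlaps the end of *Mest* on the other strand, fell by 0.55 (SE 0.20, adjusted p = 0.0353).

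*H19* and *Grb10* also separated the 2 genotypes in every library, without being called in the fit of all genotypes. *H19* was at 4606, 3489 and 4310 CPM with TRP53 and at 3213, 2527 and 2220 CPM without it (log2 fold change -0.64, SE 0.38, adjusted p = 0.189), and was called in a fit of the 6 libraries compared (-0.65, SE 0.15, adjusted p = 0.00675). *Grb10* was at 1134, 1128 and 1111 CPM against 1021, 1074 and 897 CPM (log2 fold change -0.17, SE 0.11, adjusted p = 0.219). In all, 7 of the 10 genes had groups that did not overlap, beside 57% of all genes tested. An exact permutation test of 3 libraries against 3 cannot go below p = 0.1, its value for each of these 7 genes. *Igf2*, *Cdkn1c* and *Plagl1* overlapped between the 2 genotypes.

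Markers of cell type moved in the same comparison. The fibroblast markers summed to 25270 to 31340 CPM in *Pole4*-/- *Trp53*+/+ cells and to 14360 to 17090 in *Pole4*-/- *Trp53*-/- cells, with 5 of 11 called lower and 2 higher. *Fn1* fell by 1.19, *Col3a1* by 1.40, *Col1a1* and *Col1a2* by 0.75 each and *Pdgfrb* by 0.43. *Pdgfra* rose by 1.49 and *Prrx1* by 0.66. The cartilage markers summed to 389 to 701 CPM against 139 to 370, with 2 of the 5 tested called lower. The neural and glial markers summed to 81.5 to 98.2 CPM against 125 to 147, and the skeletal muscle markers to 55.1 to 72.3 against 30.9 to 42.6. Within the muscle list *Des* fell by 1.40 and *Chrna1* rose by 2.29, and the median log2 fold change of the 9 tested was 1.11, opposite in sign to the change of the sum. Ribosomal RNA genes took 7.11%, 24.1% and 42.5% of the counts of the first group and 24.8%, 30.0% and 24.7% of the second. Both epithelial markers tested, *Krt8* and *Krt18*, were called higher, and the 6 of the list summed to 2.06 to 2.67 CPM against 4.398 to 20.2. The part of these markers in the fall of the 4 genes was not tested, and in bulk RNA a smaller share of expressing cells and less RNA per cell cannot be told apart. With log2 *Xist* CPM as a covariate the number called was 4, beside 38.3% of all genes.

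**Figure D2:**
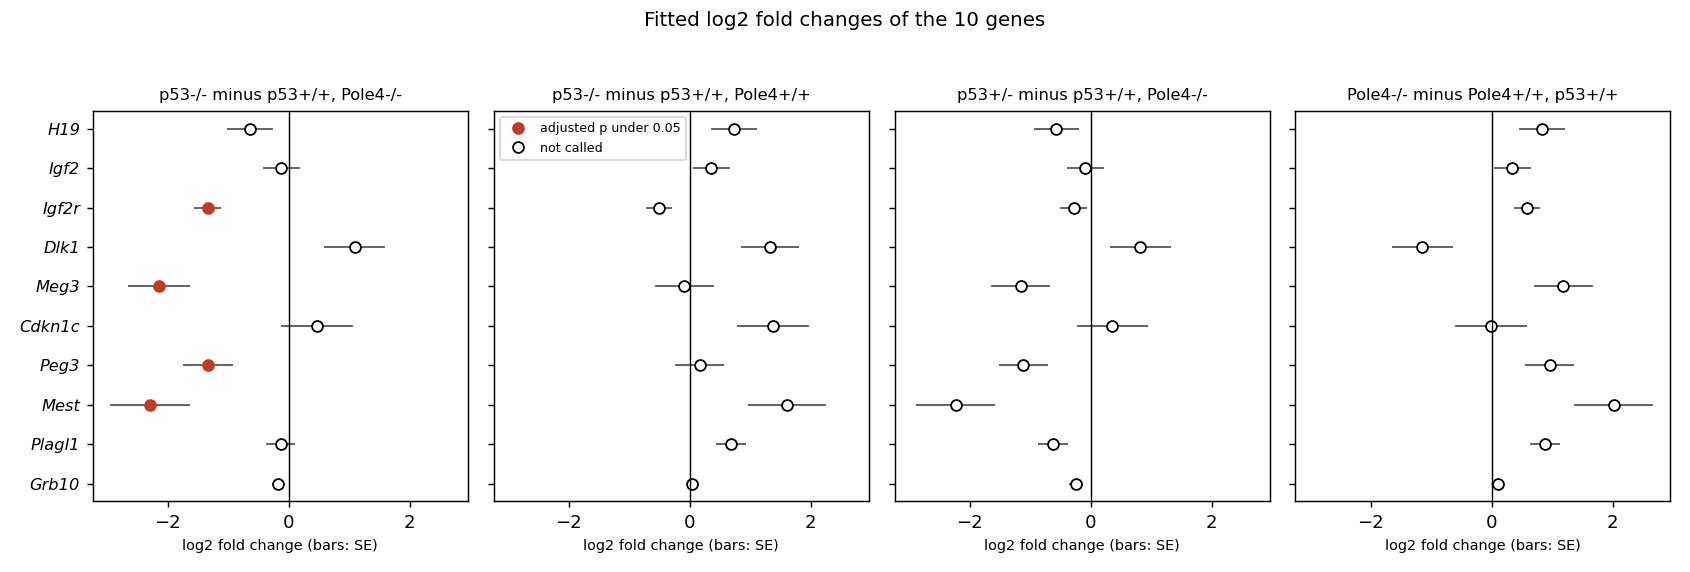
Fitted log2 fold change of the 10 genes in 4 comparisons between genotypes; points are estimates, bars are 1 SE to either side, and filled points have an adjusted p under 0.05. The filled points are *Igf2r*, *Meg3*, *Peg3* and *Mest* in the comparison of *Trp53*-/- with *Trp53*+/+ in *Pole4*-/- cells.

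With *Pole4* intact, loss of *Trp53* left no member past the threshold, beside 4.6% of all genes tested. The log2 fold changes ran from -0.51 (*Igf2r*) to 1.60 (*Mest*), and 5 of the 10 had an unadjusted p under 0.05 (18.99% of all genes), while DESeq2 and limma voom called 1 each (8.31% and 18.9%). The value for *Mest* rested on library 1 of *Pole4*+/+ *Trp53*-/- cells and was -0.15 (SE 0.35, adjusted p = 0.827) without it. The levels of *Igf2r* were 387, 314 and 477 CPM in *Pole4*+/+ *Trp53*+/+ cells and 360, 237 and 230 CPM in *Pole4*+/+ *Trp53*-/- cells, so the groups overlapped. *Plagl1* was the single gene whose groups did not overlap, beside 16.5% of all genes tested. It was at 58.9, 49.0 and 64.3 CPM with TRP53 and at 128, 71.2 and 76.8 CPM without it (log2 fold change 0.68, SE 0.25, adjusted p = 0.127). Its fold change dropped to 0.34 without *Pole4*+/+ *Trp53*-/- library 1. Leaving out that library gave 1 call among the 10, *Igf2r* (-0.78, SE 0.22, adjusted p = 0.0272), beside 16.9% of all genes. *Meg3* moved from -0.09 to -0.98 and *Peg3* from 0.16 to -0.19, and neither was called. *Dlk1* moved from 1.326 to 0.597 (SE 0.438) and *Cdkn1c* from 1.376 to 0.355 (SE 0.535). The 5 genes with an unadjusted p under 0.05 were *Igf2r*, *Dlk1*, *Cdkn1c*, *Mest* and *Plagl1*. Without that library the fold changes of all but *Igf2r* among them shrank.

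The effects of *Trp53* loss in the 2 *Pole4* backgrounds were compared by an interaction term, in which no member was called, beside 0.331% of all genes tested. *Mest* came closest, with a log2 difference of -3.90 between the 2 effects (SE 0.93, adjusted p = 0.0524). Without *Pole4*+/+ *Trp53*-/- library 1 that difference was -2.16 (adjusted p = 0.0499), smaller but past the threshold, with an SE of 0.47. *Meg3* gave -2.06 (SE 0.70, adjusted p = 0.0908) and *Igf2r* -0.83 (SE 0.31, adjusted p = 0.105), and without library 1 they gave -1.19 (adjusted p = 0.309) and -0.58 (adjusted p = 0.31). *Mest* also passed without library 2 (-4.30, adjusted p = 0.0224) or library 3 (-4.37, adjusted p = 0.0127) of the same genotype. It passed as well with upper-quartile scaling, with ribosomal RNA genes left out and with a mean of at least 50 counts. With library totals alone its adjusted p was 0.175. For *Mest* the call thus changed with the setting, while its direction did not. The count of called members was 2 with DESeq2 (11.3% of all genes) and 2 with limma voom (7.59%), and 6 of 10 had an unadjusted p under 0.05 (28.3%).

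One *Trp53* allele was compared with 2 in the same way. In *Pole4*-/- cells no member was called, beside 5.12% of all genes tested, while 4 had groups that did not overlap, beside 40.3%, and 5 had an unadjusted p under 0.05, beside 25.98%. DESeq2 called 1 of the 10 (10.9% of all genes) and limma voom 4 (24.6%). With the replicate number as a block in the fit, chosen after seeing the data, 2 were called (6.26%). *Mest* was at 48.3, 30.7 and 65.1 CPM in *Pole4*-/- *Trp53*+/- cells, close to the *Trp53*-/- values and below the *Trp53*+/+ values (log2 fold change -2.23, SE 0.66, adjusted p = 0.0641). Without *Pole4*+/+ *Trp53*-/- library 1, which is in neither group, its adjusted p was 0.00152. *Peg3* was at 107, 92.6 and 243 CPM (log2 fold change -1.11, SE 0.41, adjusted p = 0.113) and *Meg3* at 188, 97.3 and 271 CPM (-1.16, SE 0.49, adjusted p = 0.16). The third library of the heterozygous group was the highest of its group for *Mest*, *Peg3* and *Meg3*. Without it *Peg3* was called (-1.67, SE 0.41, adjusted p = 0.0433). *Grb10*, at 1043, 879 and 930 CPM, was below the *Trp53*+/+ libraries (-0.24, SE 0.11, adjusted p = 0.176), but its direction turned to 0.06 when library totals alone set the scale, which moves the median of all genes in this comparison by 0.29. In *Pole4*+/+ cells no member was called, beside 0.904% of all genes tested, and none had groups that did not overlap, beside 20.3%. None had an unadjusted p under 0.05 (10.25% of all genes) or was called by DESeq2 (2.56%) or limma voom (7.13%). The log2 fold changes there ran from -0.06 to 0.60. The interaction for the heterozygous state called no member and 0% of all genes tested, with 3 of 10 at an unadjusted p under 0.05 (10.1% of all genes), 0 called with DESeq2 (0.172%) and 4 with limma voom (6.10%), and *Mest* called without *Pole4*+/+ *Trp53*-/- library 1 (-2.76, adjusted p = 0.038).

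Loss of *Pole4* with *Trp53* intact asks what the shortage of the polymerase subunit does by itself, and 6 of the 10 genes were higher in each *Pole4*-/- library than in any *Pole4*+/+ library, beside 19.4% of all genes tested (41.1% did not overlap in either direction). None was called, beside 3.98%, and 7 had an unadjusted p under 0.05, beside 26.1%. These 7 were the 6 that were higher and *Dlk1*, which was lower (log2 fold change -1.14, SE 0.50, adjusted p = 0.17). *Mest* was at 61.7, 39.2 and 66.0 CPM in *Pole4*+/+ *Trp53*+/+ cells, against 203 to 238 in *Pole4*-/- *Trp53*+/+ cells (log2 fold change 2.02, SE 0.66, adjusted p = 0.0861). *Meg3* was at 192, 115 and 240 CPM in *Pole4*+/+ *Trp53*+/+ cells (1.19, SE 0.49, adjusted p = 0.151), and *Peg3* at 101, 137 and 255 CPM (0.96, SE 0.41, adjusted p = 0.158). The difference in *Plagl1*, which encodes a transcription factor that acts on other imprinted genes, was 0.88 (SE 0.25, adjusted p = 0.0566). *Igf2r* differed by 0.58 (SE 0.22, adjusted p = 0.118) and *H19* by 0.84 (SE 0.38, adjusted p = 0.176). This comparison shares the *Pole4*-/- *Trp53*+/+ libraries with that of *Trp53* loss, so high values in those 3 libraries enter both, with opposite sign.

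The number called in that comparison changed with the setting. Without *Pole4*+/+ *Trp53*-/- library 1, which is in neither group, 4 members were called (20.2% of all genes), and *Mest* then had an adjusted p of 0.00186. A fit of the 6 libraries compared called 5 (24.1%), DESeq2 called 2 (10.3%) and limma voom called 7 (33.5%). With the replicate number as a block in the fit, chosen after seeing the data, 2 were called (5.70%). The fibroblast markers summed to 16710 to 22390 CPM in *Pole4*+/+ *Trp53*+/+ cells and to 25270 to 31340 in *Pole4*-/- *Trp53*+/+ cells, and 0 and 2 of the libraries were male. With log2 *Xist* CPM as a covariate no member was called, as in the main fit, and the genes called fell from 626 to 3 (0.0191%). The fold changes of the members named for this comparison kept their direction with that covariate. Ribosomal RNA genes took 5.81% to 11.2% of the counts of the first group and 7.11% to 42.5% of the second. The part of the markers and of ribosomal RNA was not tested.

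In *Trp53*+/- cells loss of *Pole4* called no member (0.00637% of all genes tested) and separated none (13.1% of all genes tested). None had an unadjusted p under 0.05 (5.51% of all genes) or was called by DESeq2 (0.274%) or limma voom (1.58%). The log2 fold changes ran from -0.75 to 0.29. In *Trp53*-/- cells it also called no member (0.00637%), with 2 at an unadjusted p under 0.05 (10.4% of all genes). DESeq2 (0.185%) and limma voom (0.00637%) called 0. *Dlk1* was the single gene whose groups did not overlap there, beside 9.15% of all genes tested: 79.5, 24.1 and 32.2 CPM in *Pole4*+/+ *Trp53*-/- cells and 16.1, 15.0 and 21.6 CPM in *Pole4*-/- *Trp53*-/- cells. The fitted difference of -1.38 on the log2 scale did not pass the test (SE 0.48, adjusted p = 0.447) and came to -0.67 without *Pole4*+/+ *Trp53*-/- library 1. Averaged over the 3 *Trp53* states, the effect of *Pole4* called no member, beside 0.439% of all genes tested, with 1 of 10 at an unadjusted p under 0.05 (12.9%) and 1 called by DESeq2 (2.44%) and by limma voom (13.6%).

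Replicates of 1 genotype differed more in these genes than in most. The SD of log2 CPM within genotypes had a median of 0.51 over the 10 genes, against 0.24 over all genes tested. It was highest for *Mest* (0.81, above 91.5% of genes tested) and *Cdkn1c* (0.74, above 89.1%), and lowest for *Grb10* (0.12, above 16%). Without *Pole4*+/+ *Trp53*-/- library 1 the medians were 0.42 and 0.20, and *Mest* came to 0.41. *Cdkn1c* was then the highest of the 10 (0.60). *Grb10*, with 879 to 1238 CPM over the 18 libraries, was the steadiest of the 10.

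**Figure D3:**
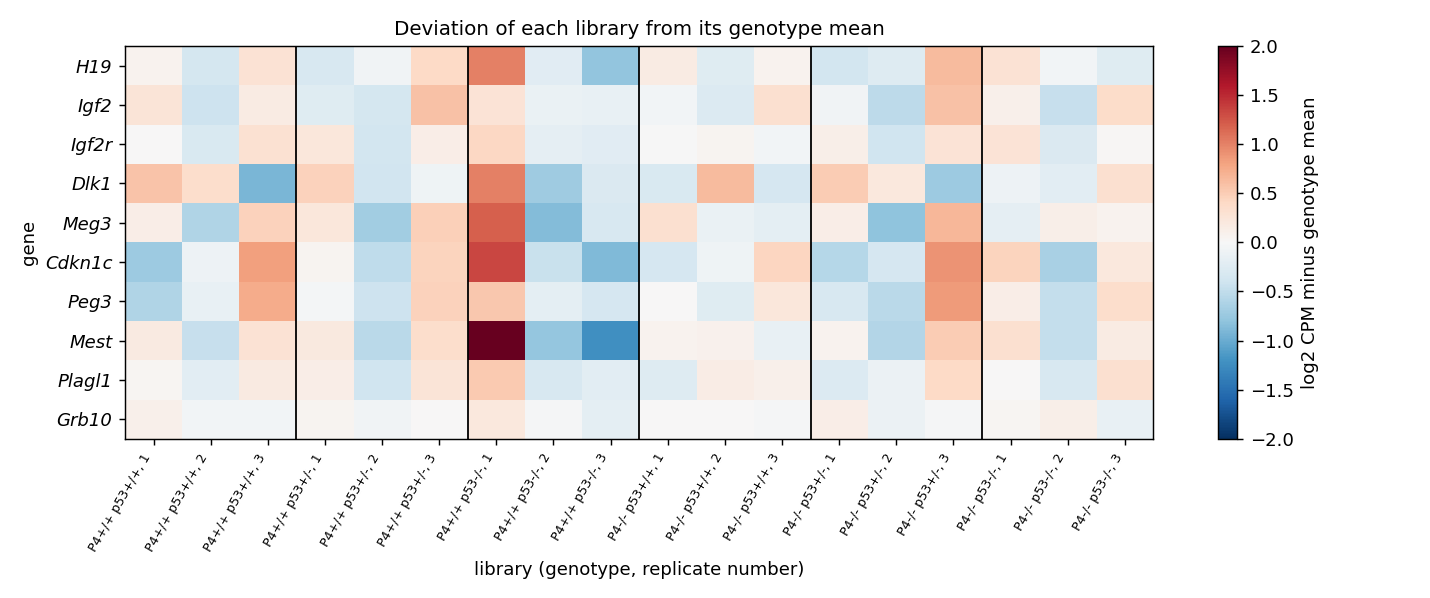
Log2 CPM of each gene in each library minus the mean of its genotype (colour scale from -2 to 2, red above and blue below the mean); columns are libraries in order of genotype and replicate number. All 10 genes are above the mean in *Pole4*+/+ *Trp53*-/- library 1, with *Mest* at 2.001.

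The genes also tended to deviate together from library to library. Of the 45 pairs of members, 41 had a positive correlation of these deviations, with a median r of 0.64 and a range from -0.28 to 0.90; over all pairs of genes tested 50.2% were above 0, with a median r of 0.002. The highest was that of *Cdkn1c* and *Peg3*. The 4 pairs below 0 all include *Dlk1*. Without *Pole4*+/+ *Trp53*-/- library 1 the median was 0.59, with 33 of 45 pairs above 0. Of the 12 pairs then below 0, 8 include *Dlk1* and 4 include *Grb10*, and *H19* with *Dlk1* went from -0.03 to -0.74. These are 18 libraries that share their scaling and genotype means, and the pairs are not independent.

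*H19* and *Igf2* share enhancers and are used from opposite parental copies; the question was whether they vary together between cultures of 1 genotype. Over the 18 libraries the deviations gave Pearson r = 0.62 (exact permutation within genotypes, p = 0.00844, adjusted over the 2 pairs tested p = 0.0169) and Spearman rho = 0.62 (exact p = 0.0207, adjusted p = 0.0415). Without the 2 libraries farthest from the *H19* median, r was 0.68 and the adjusted p from the exact permutation test was 0.061, so the relation was no longer past the threshold, though not smaller. It also missed the threshold without any 1 of 3 libraries, *Pole4*+/+ *Trp53*-/- library 1 (adjusted p of the exact permutation test 0.0642), *Pole4*-/- *Trp53*+/- library 3 (0.0581) and *Pole4*+/+ *Trp53*+/- library 3 (0.0581). For *Dlk1* and *Meg3* r was 0.21 (exact permutation p = 0.6, adjusted p = 0.6) and rho 0.15 (exact permutation p = 0.657, adjusted p = 0.657). Without the 2 libraries farthest from the *Dlk1* median r was -0.30 (exact permutation p = 0.408), so its sign rested on them. *Pole4*+/+ *Trp53*-/- library 1 is 1 of the 2 left out in both cases. The r of *H19* and *Igf2* was close to the median of the 45 pairs of members (0.64), so it was not particular to this pair. With the other members, the r of *H19* ran from -0.03 (*Dlk1*) to 0.83 (*Mest*).

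**Figure D4:**
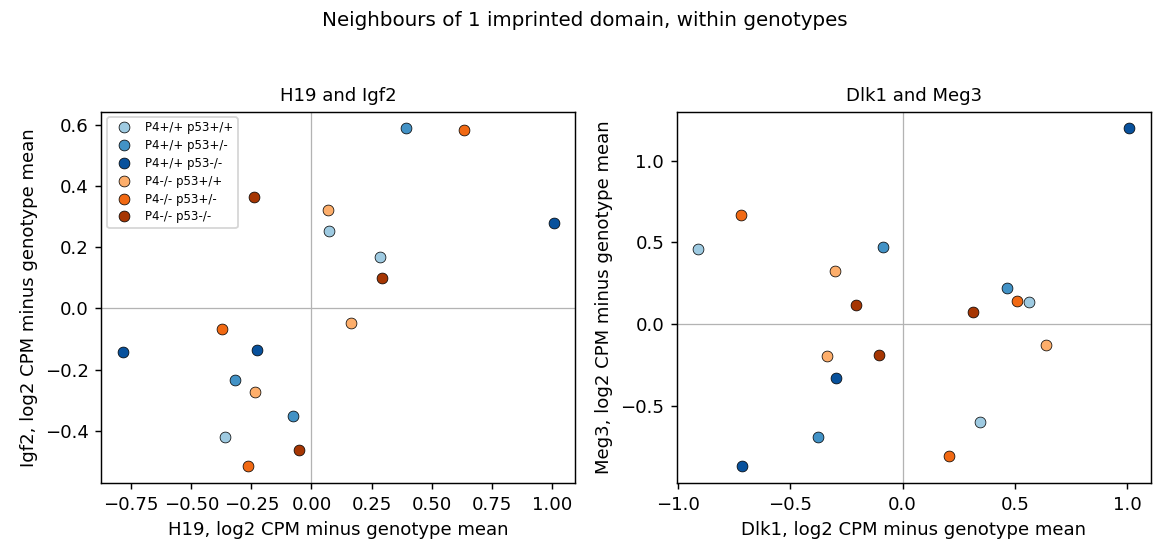
Deviations of log2 CPM from the genotype mean for *H19* against *Igf2* (left) and *Dlk1* against *Meg3* (right); each point is 1 of the 18 libraries, coloured by genotype (P4, Pole4; p53, Trp53). The left panel has r = 0.62 and the right panel r = 0.21.

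The genes with the pattern most like that of each member were taken by Pearson r of log2 CPM over the 18 libraries, as a description. For *Meg3* they were *Acp2* (r = 0.99), *Mirg* of the same domain (0.97) and *Malat1* (0.97), a nuclear long non-coding RNA. For *Peg3* the first was its neighbour *Zim1* (0.92), followed by *Man1a* (0.91) and *Igf1* (0.89), the gene of the other IGF. *Igf2r* was most like *Ahnak2*, *Hyal1* and *Tcn2* (each 0.95), and *Mest* most like *Mme*, *Lama3* and *Grik5* (0.93 to 0.95). *H19* was most like *Smarca1*, *Stat2* and *Tbl1xr1* (0.91 to 0.94), and *Igf2* had weaker likenesses, to *Car12*, *Fam184a* and *Ednrb* (0.79 to 0.82). *Dlk1* was most like *Emilin2*, *Kitl* and *Klhdc10*, *Cdkn1c* most like *Cd34*, *Rnf122* and *Mov10*, *Plagl1* most like *Lifr*, *Gucy1a1* and *Dcn*, and *Grb10* most like *Lgr4*, *Mat2b* and *Phka2*, all between 0.86 and 0.91.

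**Figure D5:**
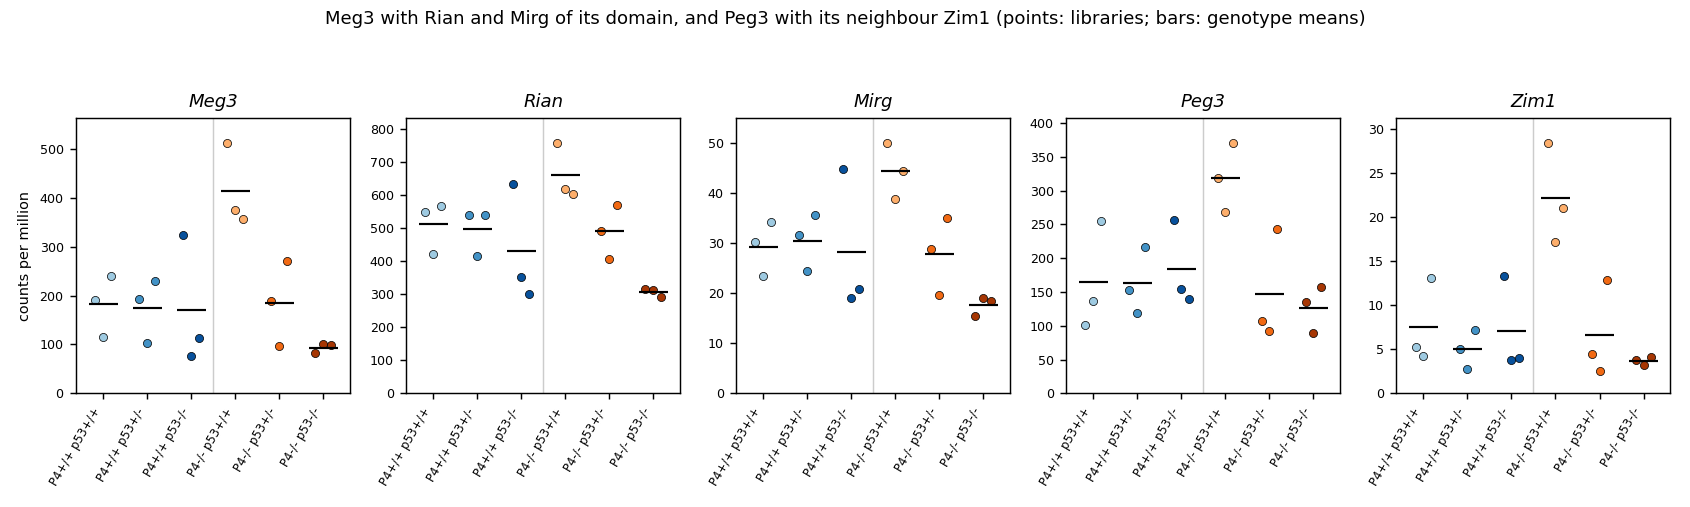
CPM (linear axis from 0) of *Meg3*, *Rian* and *Mirg* of the *Dlk1*-*Dio3* domain and of *Peg3* with its neighbour *Zim1* in the 18 libraries by genotype (P4, Pole4; p53, Trp53); points are libraries and bars are genotype means. All 5 genes are highest on average in *Pole4*-/- *Trp53*+/+ cells, and *Zim1* lies there at 17.2 to 28.5 CPM.

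Other imprinted genes were counted from a list of 69, of which 54 were tested. In the comparison of *Trp53*-/- with *Trp53*+/+ in *Pole4*-/- cells, 30 of the 54 were called (55.6%, beside 42.6% of all genes tested), 9 higher and 21 lower, with a median log2 fold change of -0.41 against -0.02 over all genes tested. The 5 with the lowest p were *Cd81* (fell by 1.46), *Nnat* (rose by 2.14), *Atp10a* (fell by 1.42), *Slc38a4* (rose by 0.98) and *H13* (fell by 0.69). Of the 28 listed genes within 1 Mb of a member, 17 were tested and 10 called, 3 higher and 7 lower. *Igf2os*, the antisense partner of *Igf2*, was among those that rose, by 1.55 (SE 0.48, adjusted p = 0.0173), while *Igf2* itself did not pass the test; its reads cannot be told from those of *Igf2* by strand. With *Pole4* intact, loss of *Trp53* called 5 of the 54 (9.26%, beside 4.6% of all genes tested): *Cd81* (-0.84), *Dhcr7* (0.82), *Nnat* (1.12), *Blcap* (-0.51) and *H13* (-0.41). It called 15 of 55 without *Pole4*+/+ *Trp53*-/- library 1 (27.3%, beside 16.9% of all genes), those 5 among them, 3 higher and 12 lower, and 8 of the 54 with log2 *Xist* CPM as a covariate (14.8%, beside 4.398%). Loss of *Pole4* with *Trp53* intact also called 5 (9.26%, beside 3.98%), *Atp10a* (0.82), *Gab1* (0.42), *Cd81* (0.51), *Slc38a4* (-0.50) and *Tssc4* (0.44). All 5 calls were lost with log2 *Xist* CPM as a covariate, which called 0 of the 54 and 0.0191% of all genes, while leaving out *Pole4*+/+ *Trp53*-/- library 1 gave 14 of 55 (25.5%, beside 20.2%), those 5 among them.

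Factors that keep or read the imprint were counted in the same way, with 13 of 15 tested. In *Pole4*-/- cells, loss of *Trp53* raised 8 of the 13 and lowered none (61.5% called, beside 42.6% of all genes tested), led by *Hells*, a chromatin remodeller (1.85, SE 0.19), *Dnmt1*, the maintenance DNA methyltransferase (1.42, SE 0.17), *Uhrf1*, its recruiting partner (1.59, SE 0.20), *Smchd1* (0.86, SE 0.12) and *Ctcf*, the insulator protein of the *H19*-*Igf2* domain (0.62, SE 0.11). With *Pole4* intact, loss of *Trp53* called none of the 13, beside 4.6% of all genes tested, with 7 at an unadjusted p under 0.05 (18.99% of all genes) and a median log2 fold change of 0.26, and the interaction also called none (0.331% of all genes), with 5 at an unadjusted p under 0.05 (28.3%). These counts turned on *Pole4*+/+ *Trp53*-/- library 1: without it loss of *Trp53* with *Pole4* intact raised 8 of the 13 (61.5%, beside 16.9% of all genes), *Hells*, *Dnmt1*, *Uhrf1*, *Smchd1* and *Ctcf* among them, and the interaction called *Hells* and *Uhrf1* (15.4%, beside 1.07%). Loss of *Pole4* with *Trp53* intact lowered 3 (23.1%, beside 3.98% of all genes tested), *Uhrf1* (fell by 0.95), *Hells* (fell by 0.88) and *Dnmt1* (fell by 0.67), and 1 *Trp53* allele in place of 2 in *Pole4*-/- cells raised the same 3 genes, by 0.78, 0.75 and 0.64 (23.1%, beside 5.12% of all genes tested). These comparisons share the *Pole4*-/- *Trp53*+/+ libraries. With log2 *Xist* CPM as a covariate the 3 calls for loss of *Pole4* were lost, at -0.87, -0.79 and -0.59 (adjusted p = 0.144, 0.157 and 0.206), as were those for 1 *Trp53* allele (0 of 13 called, beside 0.643%). Loss of *Pole4* lowered 6 of the 13 without *Pole4*+/+ *Trp53*-/- library 1 (46.2%, beside 20.2%), and 1 *Trp53* allele in place of 2 raised 6 and lowered 1 (53.8%, beside 20%).

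Of a list of 10 genes, made up of *Hmga2* and genes that bind or signal for IGF2 or bind its mRNA, 9 were tested. Loss of *Trp53* in *Pole4*-/- cells raised 5 and lowered 1 (66.7% called, beside 42.6% of all genes tested). The mRNA-binding proteins *Igf2bp1* (0.83, SE 0.13) and *Igf2bp2* (0.47, SE 0.08), the signalling adaptor *Irs2* (0.82, SE 0.18) and *Hmga2* (1.00, SE 0.23) rose, and the insulin receptor gene *Insr* fell by 0.78 (SE 0.15). *Igf2bp1* was the only one of the 9 called for loss of *Pole4* with *Trp53* intact (fell by 0.50, SE 0.13, adjusted p = 0.045), 11.1% beside 3.98% of all genes tested. With log2 *Xist* CPM as a covariate it was not called, with a log2 fold change of -0.496 and a wider SE of 0.160 (adjusted p = 0.187). With *Pole4* intact, loss of *Trp53* called none of the 9 (4.6% of all genes), with 1 at an unadjusted p under 0.05 (18.99%), and the interaction called none (0.331%), with 5 at an unadjusted p under 0.05 (28.3%). Both counts rose without *Pole4*+/+ *Trp53*-/- library 1, to 3 (*Igf2bp1*, *Igf2bp2* and *Irs2*, all higher; 33.3%, beside 16.9%) and to 2 (*Hmga2* and *Igf2bp1*; 22.2%, beside 1.07%), and loss of *Pole4* lowered 3 (*Igf2bp1*, *Irs2* and *Hmga2*; 33.3%, beside 20.2%).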

How the data were processed

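RNA was measured by RNA-seq in 18 MEF libraries, 3 for each of 6 genotypes, grouped by their labels. The deposited values are expected counts per gene, which the authors made with STAR 2.5.2 and RSEM 1.3.0 on GRCm38; 6.14% of values were not whole, and all were rounded. The kit does not mark strand. The members and lists were chosen with earlier results of these data known.

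Genes were filtered with filterByExpr, scaled by TMM and fitted over all 18 libraries with 1 mean per genotype (12 residual degrees of freedom) by edgeR's quasi-likelihood test (edgeR 4.0.16, R 4.3.3). P-values were two-sided and adjusted by Benjamini-Hochberg over all genes tested, with calls at an adjusted p under 0.05; each SE is the absolute log2 fold change divided by the square root of F. Log2 CPM used a prior count of 2. Correlations used deviations from genotype means and two-sided exact permutation within genotypes. The text names all members and, from each list, the genes with the lowest p; the genes near members were chosen after their values were seen. Alternatives used DESeq2 1.42.0 and limma 3.58.1. The scripts were tested on simulated data. No 2 libraries of a genotype agreed within sampling noise. Positions of genes come from GENCODE M21 (GRCm38), which matched 51719 of 51912 identifiers.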

Additional observations from a re-analysis of the deposited data

How the results depend on the processing

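Counts of the 10 genes called are given by setting, with the share of all genes called in parentheses. For any difference among genotypes (3 called, 28.5%), no filter on low counts gave 1 (12.8%) and DESeq2 5 (37.3%). Limma voom gave 6 (53.7%) and the replicate block 6 (30.9%), and leaving out single libraries gave 1 to 5. For *Trp53* loss in *Pole4*-/- cells (4 called, 42.6%) library totals alone gave 3 (23.7%) and no filter 3 (19.3%). DESeq2 gave 5 (43.4%) and the compared libraries alone 6 (50.8%), and leaving out single libraries gave 2 to 4. For *Trp53* loss in *Pole4*+/+ cells (0 called, 4.6%) DESeq2 gave 1 (8.31%) and voom 1 (18.95%), with 0 to 1 on leaving out libraries. For *Trp53*+/- against *Trp53*+/+ in *Pole4*-/- cells (0 called, 5.12%) a mean of at least 50 counts gave 1 (8.36%), DESeq2 1 (10.85%) and voom 4 (24.6%). The compared libraries alone gave 1 (18.2%) and the replicate block 2 (6.26%), with 0 to 1 on leaving out libraries. For *Pole4* loss in *Trp53*+/+ cells (0 called, 3.98%) a mean of at least 50 counts gave 1 (6.64%), DESeq2 2 (10.3%) and voom 7 (33.5%). The compared libraries alone gave 5 (24.1%) and the replicate block 2 (5.70%), with 0 to 4 on leaving out libraries. For the averaged *Pole4* effect (0 called, 0.439%) library totals gave 1 (11.3%), DESeq2 1 (2.44%) and voom 1 (13.6%). For the interaction with *Trp53*-/- (0 called, 0.331%) upper-quartile scaling gave 1 (1.96%), leaving out ribosomal RNA genes 1 (2.11%) and a mean of at least 50 counts 1 (4.23%). The replicate block gave 1 (3.49%), DESeq2 2 (11.3%) and voom 2 (7.59%), with 0 to 3 on leaving out libraries. For the interaction with *Trp53*+/- (0 called, 0%) voom gave 4 (6.10%), with 0 to 1 on leaving out libraries. The causes were not tested.

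*Grb10* reversed to 0.063 in *Trp53*+/- *Pole4*-/- cells with library totals alone. The correlation of *H19* and *Igf2* was 0.68 without the 2 farthest libraries, no longer past the threshold, and 0.52 to 0.72 on leaving out single libraries, 3 of which ended the call. That of *Dlk1* and *Meg3* was -0.30 without the 2 farthest, -0.34 with no genotype mean removed, and -0.26 to 0.42 on leaving out single libraries, with -0.26 without *Pole4*+/+ *Trp53*-/- library 1. The median r of the 45 pairs was 0.590 to 0.695 on leaving out single libraries, an alternative chosen after seeing the data. The counts of the other gene lists without *Pole4*+/+ *Trp53*-/- library 1 and with *Xist* as a covariate were also chosen after seeing the data. Same-numbered libraries correlated at -0.11 to 0.50, with every r above 0.1 in 1 of 7 comparisons, and the numbers were not taken to pair the samples. In 26 of 42 matches a library correlated best with its own number, a hint from the data and not the design. Library 2 had a negative median deviation of the 10 genes in 6 of 6 genotypes, and totals also followed the number (medians 30289042, 20234773 and 13073842). With the mean of each number removed as well, a replicate block chosen after seeing the data, r was 0.72 for *H19* and *Igf2*, 0.23 for *Dlk1* and *Meg3*, and 0.61 for the median pair. Fits of the compared libraries alone do not exist for the test over all genotypes and the average. *Dlk1*, with as few as 46 counts in a library, is the least precise.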
